A study of Homo sapiens with 6 samples.

Results

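KRT8 and KRT6B are 2 keratin genes chosen by symbol from the authors' deposited table of changed genes, so they are 2 of its 1305 genes. The authors had already selected every gene of that table on the comparison described here. The values of mitoxantrone against DMSO that chose these genes are therefore given as a description, with no test. NCI-H292 is an established human lung cancer line. The 3 mitoxantrone libraries came from cells treated with 50 nM mitoxantrone for 48 hours, and the 3 DMSO libraries from cells given the solvent at a dilution of 1 in 1000 for the same 48 hours. Mitoxantrone is a chemotherapy agent that intercalates into DNA and poisons topoisomerase II. By its title, the study concerns senescence and LUNX-directed therapy of lung cancer. Whether the 3 libraries of a treatment came from separate cultures is not stated, so the spread behind each p-value is that of these libraries and may be technical.

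Keratins are the intermediate filament proteins of epithelial cells. A filament is built from pairs of a type I and a type II keratin, so neither type forms a filament alone. Keratin 8 is the type II keratin of simple epithelia, such as the lining of glands and airways, and its usual type I partner is keratin 18. Keratin 6B, like its near copy keratin 6A, is a type II keratin of stratified epithelia, known for its induction in keratinocytes at wounds and in hyperproliferative skin, where it pairs with keratins 16 and 17.

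Both genes lie in the type II keratin cluster of chromosome 12, on the minus strand. In the coordinates of the deposited table, whose genome build is not given in the sources used here, KRT6B (ENSG00000185479) was at chr12:52840435-52845910 and KRT8 (ENSG00000170421) at chr12:53290977-53343738. In GRCh38, the build of the GENCODE v29 annotation, KRT6B is at chr12:52446651-52452126 and KRT8 at chr12:52897187-52949954. Of the 15 protein-coding keratin genes that GENCODE v29 places between them, 2 were listed, KRT6A and KRT3. Of all genes the authors tested, 7.13% were listed. On the other side of KRT8 is KRT18, which is transcribed from the opposite strand.

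How far reads can tell KRT6B from its copies bears on every KRT6B value below, so the coding stretch in which KRT6B differs most from KRT6A is shown, with KRT6C, the third copy. The 3 sequences are bases 656 to 745 of each coding sequence, in exon 2 of 9, from the GENCODE v29 transcripts. KRT6B is at chr12:52450416-52450505, KRT6A at chr12:52491532-52491621 and KRT6C at chr12:52472076-52472165 (GRCh38, minus strand). In the KRT6B line, capitals mark bases that differ from KRT6A. In the other lines, capitals mark bases that differ from KRT6B.
KRT6B: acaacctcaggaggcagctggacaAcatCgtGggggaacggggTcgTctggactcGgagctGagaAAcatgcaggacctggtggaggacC
KRT6A: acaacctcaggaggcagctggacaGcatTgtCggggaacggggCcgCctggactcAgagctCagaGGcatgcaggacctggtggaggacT
KRT6C: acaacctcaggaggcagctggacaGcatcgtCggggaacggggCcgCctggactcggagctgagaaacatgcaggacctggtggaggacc
Even here KRT6B differed from KRT6A at only 10 of 90 bases and from KRT6C at 4.

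Over the whole coding sequence of 1692 bases, KRT6B was 97.5% identical to KRT6A, with 42 different bases, and 98.5% identical to KRT6C, with 25. The longest coding run that KRT6B shared exactly with KRT6A was 269 bases, longer than a read of 150 bases. Of the 2133 windows of 150 bases in the KRT6B transcript, 12.8% were found exactly in a transcript of another gene: all 273 in KRT6C, and 120 of them also in KRT6A. A read from such a window cannot be placed in 1 gene by itself, although its mate may lie outside it. How the authors' counting treated such reads is not given in the sources used here. The division of reads among KRT6B, KRT6A and KRT6C is uncertain to that extent.

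KRT8 stood apart from the KRT6 genes. Its coding sequence of 1449 bases was 71.2% identical to that of KRT6B over the aligned bases. No window of 150 bases of the KRT8-201 transcript was found exactly in a transcript of another gene (0 of 1733 windows), although GENCODE v29 names 50 KRT8 pseudogenes. None of these pseudogenes was listed. At 50 bases, 37.1% of KRT8 windows and 47.1% of KRT6B windows were found in another gene.

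**Figure D1:**
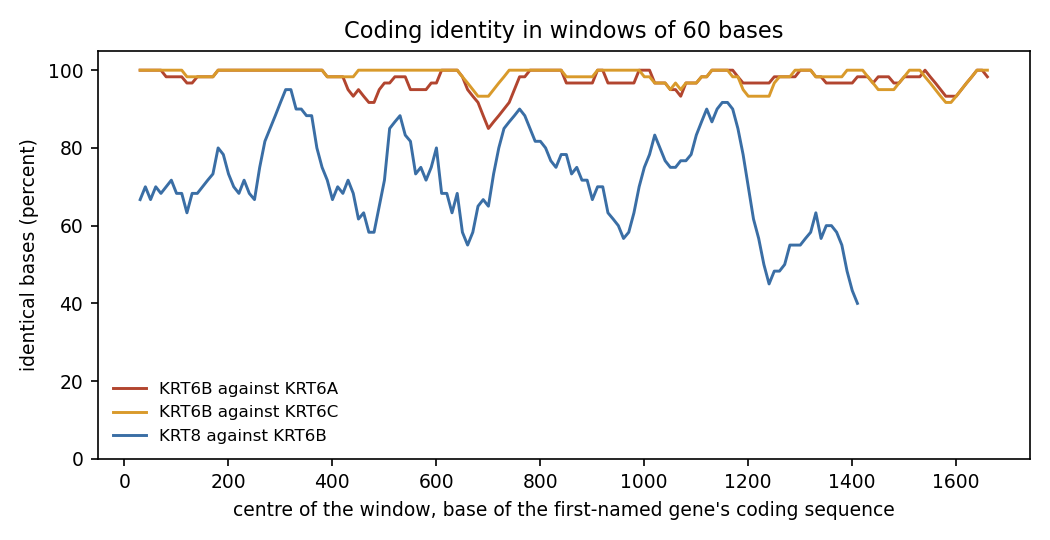
Identity of coding sequences in windows of 60 bases, in percent of bases, against the position of the window along the coding sequence of the first gene of each pair. KRT6B stays between 85.0% and 100% identical to KRT6A and between 91.7% and 100% to KRT6C, while KRT8 ranges from 40% to 95% against KRT6B.

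Another limit touches KRT8. In the deposited coordinates the KRT8 gene model overlaps KRT18 (chr12:53342655-53346685, plus strand) by 1084 bases. In GENCODE v29 the exons of KRT8 and KRT18 overlap by 525 bases, 7.63% of the exonic bases of KRT8 and 16.3% of those of KRT18. Whether the libraries kept the strand is not given, and without strand the reads of these bases cannot be assigned to either gene.

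The libraries held 14762544 to 15663331 assigned reads with mitoxantrone and 15789353 to 17817782 with DMSO, as solved from the deposited FPKM values. FPKM is the number of fragments scaled by gene length and by the assigned reads of the library, and is the scale used here to compare levels between genes. The deposited lengths were 5005 bases for KRT8, 3218 for KRT18, 2282 for KRT6B and 2928 for KRT6A. The GENCODE v29 transcripts used here have 1882, 1562, 2282 and 2310 bases in the same order. Ranks by FPKM and ratios between genes use the deposited lengths. These place KRT8 lower against KRT18 and KRT6B, and KRT6B higher against KRT6A, than the transcript lengths would. Replicates differed by more than sampling noise, with a chi-square per gene of 3.05 to 15.6 between mitoxantrone libraries and 11.8 to 29 between DMSO libraries. The widest of these gaps separated DMSO replicate 2 from DMSO replicate 1.

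KRT8 was abundant with and without the drug, and was higher in every mitoxantrone library than in any DMSO library. Its level was 1183, 1093 and 1003 FPKM in mitoxantrone replicates 1, 2 and 3, against 375, 468 and 383 FPKM in DMSO replicates 1, 2 and 3. The lowest mitoxantrone library thus stood well above DMSO replicate 2, the highest of its group. Mean levels were 1093 ± 90 FPKM with mitoxantrone and 409 ± 51.2 FPKM with DMSO (SD, n = 3 each). KRT8 took 0.592%, 0.547% and 0.502% of the assigned reads of mitoxantrone replicates 1, 2 and 3, and 0.188%, 0.234% and 0.192% of those of DMSO replicates 1, 2 and 3. Among the 1305 listed genes it ranked first by FPKM with mitoxantrone and 4th with DMSO. By mean FPKM over the 6 libraries, KRT8 at 751 was followed by its partner KRT18 at 663.

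The KRT8 counts were deep enough that counting error hardly mattered. They were 87437, 85674 and 74483 reads with mitoxantrone and 33061, 36964 and 34181 reads with DMSO. For the share in mitoxantrone replicate 1 the 95% exact binomial interval was 0.588% to 0.596%, and for DMSO replicate 1 it was 0.186% to 0.190%. Intervals here cover counting error only. Counting alone would have given coefficients of variation of 0.348% with mitoxantrone and 0.535% with DMSO, whereas the normalized reads varied by 10.6% and 16.8%. Nearly all of the spread of KRT8 was thus between libraries and not in the counting. The log2 fold change of mitoxantrone over DMSO, fitted with edgeR on the read counts, was 1.48, with a standard error (SE) of 0.18, a 2.8-fold difference. The authors' deposited table gave 1.44 (SE 0.14).

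KRT6B was close to the limit of detection with DMSO and was counted at a low but steady level with mitoxantrone. It had 74, 87 and 82 reads in mitoxantrone replicates 1, 2 and 3, against 7, 4 and 2 reads in DMSO replicates 1, 2 and 3. The groups were far apart: the lowest mitoxantrone library held more reads than the 13 of all DMSO libraries together. Levels were 2.2, 2.43 and 2.42 FPKM with mitoxantrone and 0.17, 0.11 and 0.05 FPKM with DMSO, with means of 2.35 ± 0.13 and 0.11 ± 0.06 FPKM (SD, n = 3 each). KRT6B ranked 537th of 1305 by FPKM with mitoxantrone and 1112th with DMSO, so it remained a minor keratin in level. KRT8 exceeded it 539-fold, 449-fold and 414-fold per base of gene length in mitoxantrone replicates 1, 2 and 3, and 2150-fold, 4210-fold and 7790-fold in DMSO replicates 1, 2 and 3, the last of these resting on 2 reads of KRT6B.

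For KRT6B the counting error was close to or above the spread between libraries. With DMSO, counting alone would have given a coefficient of variation of 48.1%, and 54.6% was observed. With mitoxantrone, counting alone would have given 11.1%, and 4.03% was observed. The fitted log2 fold change was 4.43 (SE 0.34), a 21.6-fold difference. The ratio of summed reads, 243 over the mitoxantrone libraries and 13 over the DMSO libraries, scaled by size factors, was 22.2 with a 95% exact interval of 12.8 to 42.4. The authors' deposited table gave a log2 fold change of 3.48 (SE 0.31), an 11.2-fold difference. The fold of KRT6B is thus known less exactly than that of KRT8.

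**Figure D2:**
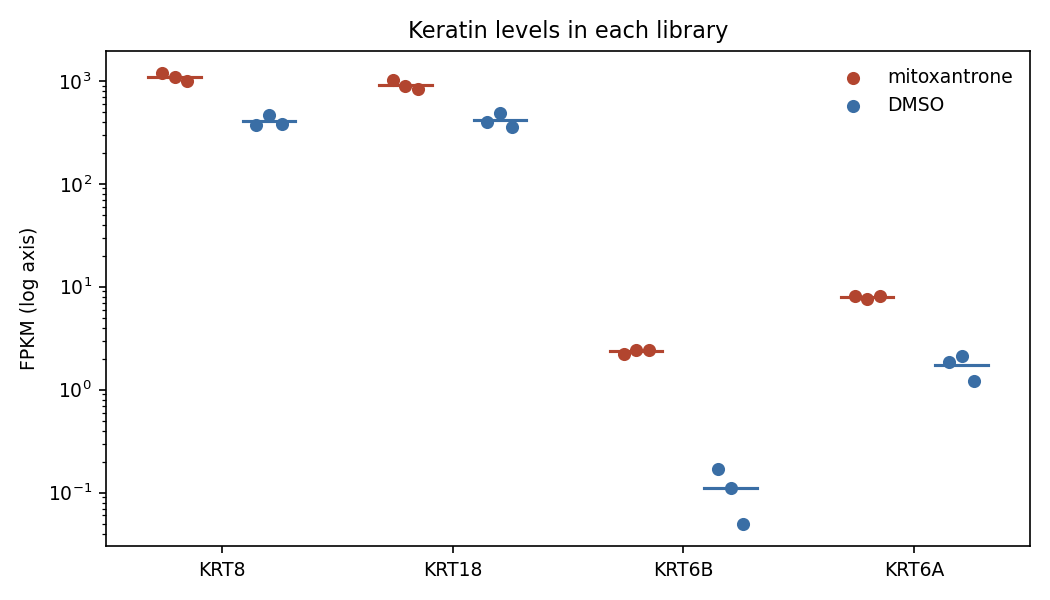
FPKM of KRT8, KRT18, KRT6B and KRT6A on a log axis, 1 point per library and a bar at the mean of the 3 libraries of each treatment. Every mitoxantrone library lies above every DMSO library for each of the 4 genes, and KRT6B with DMSO lies between 0.05 and 0.17 FPKM.

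In the authors' deposited table, which chose these genes, the adjusted p was 1.5e-24 for KRT8 and 9.2e-27 for KRT6B, and the largest listed was 0.043. The smallest absolute log2 fold change listed there was 1.0, so KRT8 at 1.44 was nearer that limit than KRT6B at 3.48. Genes just outside these limits were not analysed here. The authors had tested about 18310 genes, of which the 793 listed as higher were 4.33%, and the rule that chose KRT8 and KRT6B used that contrast. Among the 793 listed genes that were higher, the median fitted log2 fold change was 1.74. KRT8 ranked 524th of 1305 by fitted log2 fold change and KRT6B 25th, and by the log2 fold change of the authors' deposited table they ranked 321st and 12th. Groups of libraries that did not overlap were found for 98.6% of listed genes, 60.1% with mitoxantrone higher, so the gap between groups is no mark of these 2 genes.

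**Figure D3:**
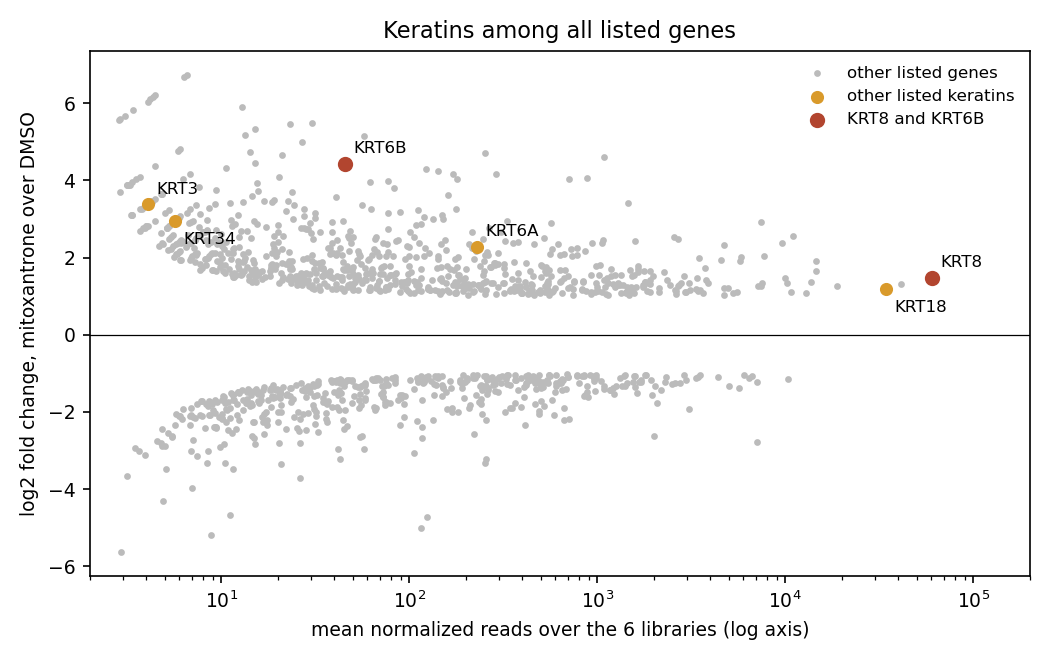
Fitted log2 fold change of mitoxantrone over DMSO against mean normalized reads (log axis) for the 1305 listed genes, with KRT8 and KRT6B and the other listed keratins coloured. KRT8 is at the far right with a log2 fold change of 1.48, and KRT6B is at 4.43, the 25th highest, with few reads.

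Among the other 52 keratin genes, 4 were listed, and all 4 passed as higher with mitoxantrone (edgeR quasi-likelihood test, Benjamini-Hochberg adjusted p under 0.05). In that test 92.0% of the listed genes were called, 56.7% higher and 35.3% lower, so a listed keratin that passed is close to the background. The test used the same reads and contrast by which the authors had listed these genes. Its p-values, here and below, are therefore descriptive and no independent evidence. Of all genes the authors tested, 7.13% were listed. The median fitted log2 fold change of these 4 keratins was 2.61, against 1.26 for all listed genes and 1.74 for those that were higher. That median lies between KRT6A at 2.28 and KRT34 at 2.94. KRT34 and KRT3, the latter at 3.39, had 0 to 3 reads in a DMSO library. In the authors' deposited table the log2 fold changes were 1.15 for KRT18, 2.17 for KRT6A, 1.35 for KRT34 and 1.20 for KRT3. KRT16, KRT17, KRT5, KRT14, KRT7 and KRT19 were not analysed here.

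KRT18, the type I partner of keratin 8, changed with it but by a smaller factor. KRT18 (ENSG00000111057) had 1007, 891 and 830.02 FPKM in mitoxantrone replicates 1, 2 and 3, against 399.9, 489 and 358 FPKM in DMSO replicates 1, 2 and 3. Its log2 fold change was 1.19 (SE 0.18) (adjusted p = 1.8e-04, edgeR quasi-likelihood test). With mitoxantrone, both KRT8 and KRT18 were highest in replicate 1 and lowest in replicate 3. With DMSO both were highest in replicate 2, but KRT8 was lowest in replicate 1 and KRT18 in replicate 3. Per base of gene length, KRT8 had 1.17, 1.23 and 1.21 times the reads of KRT18 in mitoxantrone replicates 1, 2 and 3, against 0.939, 0.956 and 1.07 times in DMSO replicates 1, 2 and 3. The mean ratios were 1.20 ± 0.0266 with mitoxantrone and 0.988 ± 0.0711 with DMSO (SD, n = 3 each), and the groups did not overlap. These ratios use the KRT8 counts that chose the gene and were not tested. Whether a ratio lies above or below 1 depends on the lengths used, but its fold difference between treatments does not.

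KRT6A (ENSG00000205420, chr12:52880958-52887041 in the deposited coordinates) is the near copy of KRT6B and the more abundant of the pair. It had 8.19, 7.65 and 8.15 FPKM in mitoxantrone replicates 1, 2 and 3, against 1.84, 2.14 and 1.21 FPKM in DMSO replicates 1, 2 and 3. Its log2 fold change was 2.28 (SE 0.19) (adjusted p = 8.1e-07, edgeR quasi-likelihood test), a 4.85-fold rise. KRT6A exceeded KRT6B in every library, but the balance between them differed. Per base of gene length, KRT6B had 0.268, 0.318 and 0.297 times the reads of KRT6A in mitoxantrone replicates 1, 2 and 3, against 0.0945, 0.0518 and 0.0407 times in DMSO replicates 1, 2 and 3. The DMSO ratios rest on 7, 4 and 2 reads of KRT6B, and reads that the copies share could shift them. The sum of KRT6A and KRT6B was 10.4, 10.1 and 10.6 FPKM with mitoxantrone and 2.01, 2.25 and 1.26 FPKM with DMSO. Its means differed 5.62-fold. This sum depends less on how reads were divided between KRT6A and KRT6B. Reads shared with KRT6C, whose counts were not analysed here, could still shift it.

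**Figure D4:**
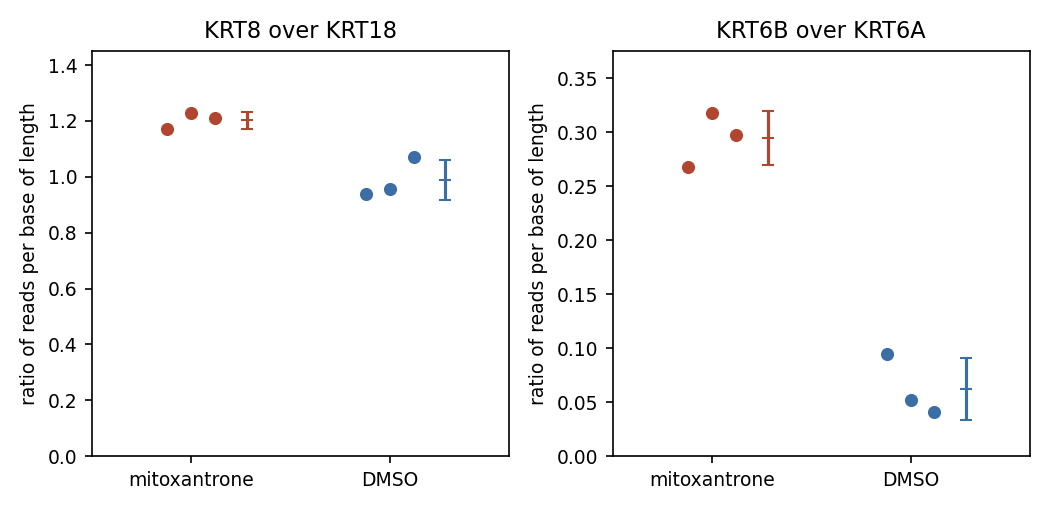
Ratio of reads per base of gene length of KRT8 over KRT18 (left) and of KRT6B over KRT6A (right), 1 point per library, with the mean and SD of 3 libraries beside them. The KRT8 over KRT18 ratio is 1.17 to 1.23 with mitoxantrone and 0.939 to 1.07 with DMSO, and the KRT6B over KRT6A ratio is 0.268 to 0.318 with mitoxantrone and 0.0407 to 0.0945 with DMSO.

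The remaining listed keratins were barely detected. KRT3, a type II keratin known from the cornea, had 4, 10 and 7 reads with mitoxantrone and 0, 2 and 0 with DMSO. KRT34, a type I hair keratin, had 13, 9 and 6 reads with mitoxantrone and 3, 0 and 1 with DMSO. Their calls were fragile in the edgeR quasi-likelihood test: the adjusted p of 0.035 for KRT3 became 0.17 without DMSO replicate 1, 0.18 without DMSO replicate 3, 0.21 without mitoxantrone replicate 2 and 0.095 without mitoxantrone replicate 3, and it was 0.1 with DESeq2. For KRT34 the adjusted p of 0.022 became 0.11 without DMSO replicate 3, 0.14 without mitoxantrone replicate 1 and 0.057 without mitoxantrone replicate 2. Without DMSO replicate 3 or mitoxantrone replicate 2, 2 of these 4 keratins passed, and 1 passed under TMM or DESeq2 scaling from the listed genes. KRT8 and KRT18 together held 99.4% to 99.5% of the summed FPKM of the 6 listed keratins with mitoxantrone and 99.7% to 99.8% with DMSO. KRT6B held 0.0999% to 0.131% with mitoxantrone and 0.00673% to 0.0219% with DMSO.

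The scaling of the libraries bears on these rises. Size factors can also be taken from the listed genes, on the assumption that most of these do not change. All listed genes were selected as changed, 793 higher and 512 lower, so that assumption is not met. Values with these factors, here and elsewhere, only describe how far such a scaling moves the results. The median log2 fold change then moved by -0.69 (TMM) and -0.99 (DESeq2). Calls over the table were 740 higher and 461 lower with the authors' size factors, 366 and 512 with TMM factors, and 219 and 512 with DESeq2 factors. KRT8 then had a log2 fold change of 0.80 with TMM factors and 0.49 with DESeq2 factors, and KRT6B 3.75 and 3.45. KRT18 had 0.51 with TMM factors (adjusted p = 0.22, edgeR quasi-likelihood test) and 0.20 with DESeq2 factors (adjusted p = 1). No listed keratin changed direction under either scaling. Scaling by the library totals, which does not rest on the listed genes, gave 1.42 for KRT8 and 4.36 for KRT6B.

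Activated keratinocytes are the state in which keratin 6 is known to be induced. Of 33 genes that mark it, KRT6B left out, 17 were listed, where 7.13% of all genes tested were. The others were not analysed here. Of the 17, 14 passed as higher and 3 as lower, where 56.7% of all listed genes passed as higher and 35.3% as lower. Their median log2 fold change was 2.06, against 1.26 for all listed genes. This list, like the others here, was chosen with earlier results of these data known, so these shares only describe its members. AREG, which encodes the EGF receptor ligand amphiregulin, had 1334 ± 74.6 normalized reads with mitoxantrone and 82.5 ± 30.2 with DMSO (SD, n = 3 each), a log2 fold change of 4.03 (SE 0.22). EREG (epiregulin, another ligand of that receptor) had a log2 fold change of 3.70 (SE 0.46), and LCN2 (lipocalin 2, an antimicrobial protein that binds siderophores) 2.91 (SE 0.17). The 3 that fell were neighbouring serpin genes also known from squamous epithelium. SERPINB4 had a log2 fold change of -2.41, SERPINB13 of -1.92 and SERPINB3 of -1.30. AREG is listed beside a copy, AREGB, and SERPINB3 and SERPINB4 are close paralogs, so reads may be shared between them. With DESeq2 factors over the listed genes 9 passed as higher.

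The cornified envelope, the cross-linked protein shell of terminally differentiated keratinocytes, contributed 9 listed genes of 35, where 7.13% of all genes tested were listed. All 9 passed as higher, against 56.7% of listed genes. Their median log2 fold change was 2.12, against 1.74 for all listed genes that were higher. This list too was chosen with earlier results of these data known, so these values only describe its members. CRCT1, a gene of the epidermal differentiation complex, had 56.1 ± 11.6 normalized reads with mitoxantrone and 6.98 ± 4.97 with DMSO (SD, n = 3 each). SPRR1B, a small proline-rich envelope protein, had 25 reads over the mitoxantrone libraries and 3 over the DMSO libraries, and LCE3E, a late cornified envelope protein, 36 and 0. These are low counts, and with TMM or DESeq2 factors over the listed genes 4 of the 9 passed. When 1 library was left out 6 to 8 passed, with the 6 found without DMSO replicate 1. The SPRR1B call (adjusted p = 0.027, edgeR quasi-likelihood test) ended without DMSO replicate 1 (0.13), DMSO replicate 3 (0.053) or mitoxantrone replicate 1 (0.3), and was 0.058 with DESeq2.

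Of 18 genes of the simple epithelial programme, KRT8 left out, KRT18 and ELF3 were listed, where 7.13% of all genes tested were, and these 2 went in opposite directions. ELF3, an epithelial transcription factor, fell to 1469 ± 121 normalized reads with mitoxantrone, against 3561 ± 928 with DMSO (SD, n = 3 each), a log2 fold change of -1.28 (SE 0.17). EPCAM, CDH1, KRT7 and KRT19, defining markers of epithelium, were not analysed here, so the epithelial label of the line was not checked on them.

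Of 25 genes that anchor keratin filaments at junctions, 3 were listed, where 7.13% of all genes tested were, and all 3 passed as higher, as 56.7% of listed genes did. COL17A1, the transmembrane collagen of hemidesmosomes, where keratin filaments meet the basement membrane, had 16140 ± 1510 normalized reads with mitoxantrone and 3108 ± 357 with DMSO (SD, n = 3 each). DSG3, a desmosomal cadherin of squamous epithelium, had a log2 fold change of 1.29 (SE 0.16). PLEC encodes plectin, which links keratins to hemidesmosomes, and had 1.26 (SE 0.23). PLEC was uneven in the DMSO libraries, at 13590, 7248 and 12330 normalized reads in replicates 1, 2 and 3. DMSO replicate 2, the lowest for PLEC, was the highest for KRT8 and KRT18. With DESeq2 factors over the listed genes only COL17A1 passed.

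Of 35 regulators known to act on keratin genes, 7 were listed, where 7.13% of all genes tested were. Of the 7, 4 passed as higher and 3 as lower, a split near that of all listed genes (56.7% higher and 35.3% lower). GRHL3, a grainyhead factor of epidermal differentiation, had a log2 fold change of 1.77 (SE 0.21). FOS, a component of the AP-1 factor, had 1.47 (SE 0.21), and EHF, an ETS factor of epithelia, 1.34 (SE 0.20). CEBPA, CEBPD and ELF3 fell, with log2 fold changes of -1.30, -1.24 and -1.28. As higher, 2 passed with TMM factors from the listed genes and 1 with DESeq2 factors. Of 18 intermediate filament genes outside the keratin family, SYNC, which encodes syncoilin, had a log2 fold change of 1.52 and LMNB1, which encodes lamin B1 of the nuclear lamina, -1.55.

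**Figure D5:**
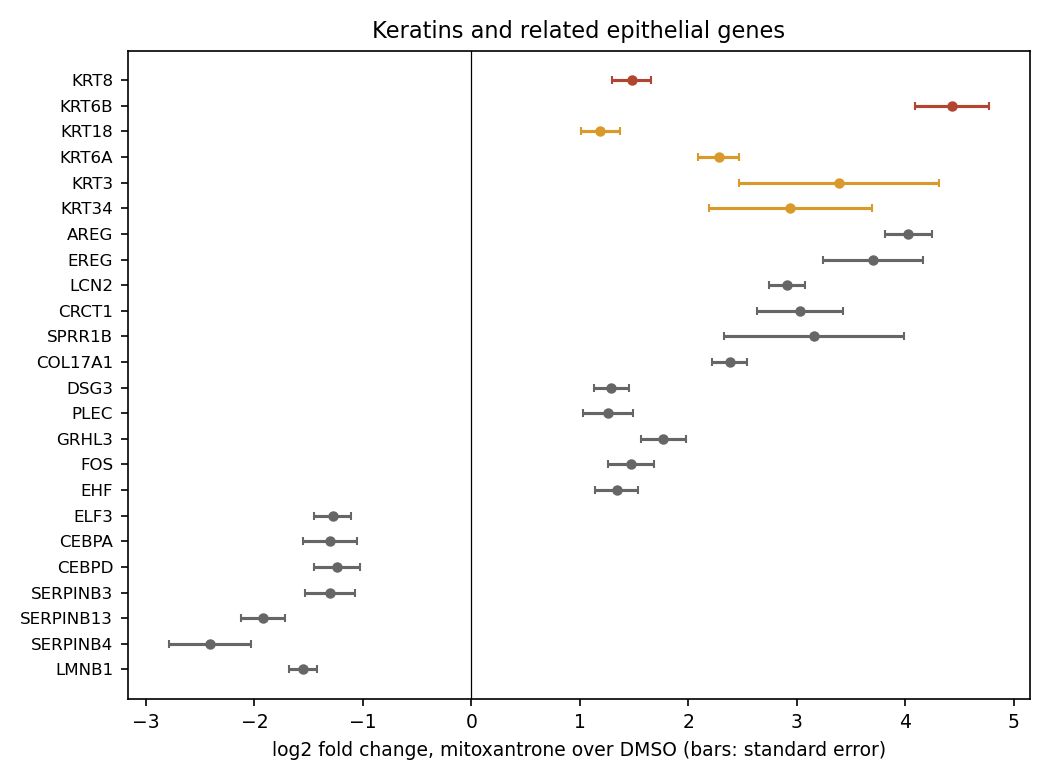
Fitted log2 fold change of mitoxantrone over DMSO with its standard error for KRT8 and KRT6B (red), the other listed keratins (yellow) and named related epithelial genes (grey). The 6 keratins all lie above 0, from 1.19 for KRT18 to 4.43 for KRT6B, while ELF3, CEBPA, CEBPD, 3 serpins and LMNB1 lie below 0.

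Markers of other cell types were looked at beside these values, where 7.13% of all genes tested were listed. Mesenchymal markers (4 of 16 listed) summed to 12.9 to 13.7 FPKM in mitoxantrone libraries and 14.9 to 17.6 FPKM in DMSO libraries. Leukocyte markers (2 of 14 listed) summed to 0.96 to 1.23 FPKM with mitoxantrone and 1.57 to 2.49 FPKM with DMSO, and the endothelial marker CDH5 (1 of 6 listed) was at 1.93 to 2.42 FPKM and 3.98 to 5.68 FPKM. Airway secretory and ciliated markers (3 of 11 listed) summed to 0.28 to 0.53 FPKM with mitoxantrone and 1.12 to 2.07 FPKM with DMSO. Of these markers, SNAI1 (adjusted p = 0.071) and TPPP3 (0.15) did not pass the edgeR quasi-likelihood test. BPIFB1 had 3, 0 and 4 reads with mitoxantrone and 9, 13 and 24 with DMSO. TPPP3 had 0, 2 and 6 reads with mitoxantrone and 6, 17 and 19 with DMSO, so its groups overlapped. All 4 sums were lower with mitoxantrone, but they hold only genes listed as changed, and single markers went the other way. ACTA2, smooth muscle actin, had 7.94, 8.23 and 7.57 FPKM with mitoxantrone and 2.89, 3.14 and 3.91 FPKM with DMSO (adjusted p = 1.7e-05, edgeR quasi-likelihood test), but did not pass with DESeq2 factors from the listed genes (0.97). ITGAM, an integrin of myeloid cells, had 11, 31 and 18 reads with mitoxantrone and 6, 1 and 5 with DMSO. Its edgeR adjusted p was 0.0056, and 0.061 without mitoxantrone replicate 2. The part of these markers in the keratin values was not tested. In bulk RNA, more cells that express a keratin and more keratin RNA per cell cannot be told apart.

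The listed genes whose profile over the 6 libraries was most like that of each keratin were found by the root mean square difference of log2(normalized reads + 1), each gene centred on its own mean, among protein-coding genes in the upper part of the table, from its median normalized reads upward. For KRT8 they included SRGN (serglycin, a proteoglycan of secretory granules), at 0.0728, and C12orf5 (TIGAR, a p53-regulated phosphatase of sugar metabolism), at 0.0731, of 600 genes compared. SRGN shared the order of KRT8 over the mitoxantrone libraries, with 6504, 5342 and 4849 normalized reads in replicates 1, 2 and 3, against 1830, 2603 and 1760 in DMSO replicates 1, 2 and 3. For KRT6B the nearest were CEACAM1 (a cell adhesion receptor), at 0.238, ESM1 (endocan, a secreted proteoglycan), at 0.242, and AREG, at 0.247, of 601 genes. None of these 5 genes is a keratin, but KRT3 and KRT34 lay below that median and were not compared. KRT6B itself lay below it, with a mean of 45.7 normalized reads against a median of 64.2. It was therefore compared only with genes of a higher mean. The profiles include the difference between treatments that chose the keratins, so genes of like fold change come out near. Log2 fold changes were 1.43 for SRGN and 1.53 for C12orf5, beside 1.48 for KRT8. They were 4.24 for CEACAM1, 4.29 for ESM1 and 4.03 for AREG, beside 4.43 for KRT6B. In the deposited coordinates, the listed genes on either side of KRT6B were KRT6A at 35047 bases and GPD1 at 2335332 bases, and those of KRT8 were KRT18, which overlaps it, and KRT3 at 101075 bases.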

How the data were processed

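Per the labels' protocols, libraries followed poly(A) selection or ribosomal RNA removal (which is not stated), and both fragment ends were read for 150 bases. DESeq2, Cufflinks 2.2.1, HTSeq 0.6.1, HISAT2 2.0.1 and cutadapt 1.9.1 are named, with no roles, per the submitters' processing notes. The genome build is not given in the sources used here. Per the file headers, the deposited table holds raw read counts and FPKM values per library, the authors' mean normalized count (a signal from their size factors), their log2 fold change with its standard error, their test score, and their p-value and adjusted p-value.

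The authors' size factors were solved from the counts and mean normalized counts (largest relative error 5.0e-10). Library totals were solved from FPKM. About 18310 tested genes (18301 to 18318) were inferred from the first 20 adjusted p-values. Counts were fitted with edgeR 4.0.16 (quasi-likelihood, R 4.3.3, treatment only, the authors' size factors, no filter). Benjamini-Hochberg adjustment used 18310 tests with ranks among the 1305 listed genes, at a threshold of 0.05. Standard errors are the log2 fold change over the root of F. Genes outside the table were not analysed here, and dispersions from selected genes tend to be low. KRT6B passes a filter of 10 reads in 3 libraries through its mitoxantrone libraries only. Data for this comparison were also simulated with 1305 genes, of which 1105 were unchanged. Of 100 genes with an absolute log2 fold of 1, 52% were called, and of 100 with 2, 93%. Of the unchanged genes 0.362% were called. The deposited table holds only genes selected as changed, so these rates need not hold for it.

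KRT8, KRT6B and the gene lists were chosen with earlier results of these data known. Named genes are the listed members of fixed lists (all, or up to 3 largest rises and falls), the 3 nearest profiles (for KRT8, 1 is not reported here), and the neighbours on the chromosome and by FPKM. Sequences are GENCODE v29 transcripts (GRCh38). Figures used matplotlib 3.10.9. All columns of library values were used (0 left out).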

Additional observations from a re-analysis of the deposited data

How the results depend on the processing

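KRT8 and KRT6B stayed higher with mitoxantrone under every alternative run. The log2 fold change of KRT8 was 0.80 with TMM and 0.49 with DESeq2 factors taken from the listed genes, and 1.41 to 1.63 when 1 library was left out. That of KRT6B was 3.75 and 3.45 with these factors, 1.59 on log2(FPKM + 1), 3.58 on log2(FPKM + 0.1), 3.48 in the authors' deposited table, and 4.06 to 4.90 when 1 library was left out. A pseudocount pulls low values together by construction, and the cause of the lower deposited value was not tested. Calls over the table were 731 with DESeq2 factors, with 219 higher, and 366 higher with TMM factors. They were 1021 to 1178 when 1 library was left out (622 to 715 higher, 395 to 463 lower). Deviations of same-numbered libraries from their group means had correlations of -0.46, -0.27 and 0.23. Other pairs ranged from -0.5 to 0.6, so these values cannot decide whether same-numbered libraries were paired. The replicate block gave 1199 calls, with log2 fold changes of 1.49 for KRT8 and 4.44 for KRT6B. Depth limits KRT6B, KRT3 and KRT34, whose DMSO libraries held 0 to 7 reads.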

Other observations

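Keratin-associated proteins, which cross-link keratins in hair, are not part of the keratin family and were named after their values were seen. KRTAP2-3 had 3, 14 and 8 reads with mitoxantrone and 0 in each DMSO library. KRTAP4-1 had 53 reads over the mitoxantrone libraries and 21 over the DMSO libraries, and its log2 fold change of 1.57 did not pass the edgeR test (adjusted p = 0.14). KRTAP5-1 had 16 reads with mitoxantrone and 58 with DMSO, and its log2 fold change of -1.57 did not pass either (edgeR adjusted p = 0.1). By mean FPKM over all libraries, KRT6B at 1.23 stood between RP5-1028K7.2 and RN7SKP16.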
